A study of Homo sapiens with 2 samples.

Results

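The sestrins, DDIT4 and the core regulators of mTORC1 were followed in HCT116, a human cell line from a colorectal carcinoma, given CB-5083 at 1 µM or its solvent DMSO for 8 h. CB-5083 is an inhibitor of p97 (gene VCP), an ATPase that extracts ubiquitinated proteins from membranes and complexes. The genes were SESN1, SESN2, SESN3, DDIT4, DEPTOR, TSC1, TSC2, RHEB, MTOR and RPTOR, taken by symbol, and each matched 1 of the 21115 genes in the table. They were listed by their known roles and not by a threshold on these values, although earlier results of these data were known when the list was made. Messenger RNA was sequenced in 1 library per treatment, so the differences have no replicate check, no test between treatments was possible and no p-value is given.

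mTORC1 is the kinase complex that couples growth to nutrients: with amino acids and growth factors present it phosphorylates factors that promote translation and restrain autophagy. It consists of the kinase MTOR, the scaffold RPTOR and further subunits, and it is switched on at the lysosome by the small GTPase RHEB. TSC1 and TSC2 form a complex that turns RHEB off, DDIT4 (also called REDD1) acts through that complex, and the sestrins act on the GATOR complexes upstream of the Rag GTPases. SESN2 and DDIT4 are known targets of the stress factor ATF4, and SESN3 of FOXO factors.

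Levels are in CPM, the estimated count of a gene scaled to its library's total and adjusted by a TMM factor. Ratios are CB-5083 over DMSO on the log2 scale after 1 CPM was added to both levels, which understates the difference of low genes. A gene was called higher or lower at a log2 ratio of at least 1 in size, that is 2-fold, with at least 5 CPM in 1 library. Folds are given without the added 1 CPM, each with an exact (Clopper-Pearson) 95% interval that covers counting error only. In all, 29273774 estimated counts were recovered with DMSO and 31997805 with CB-5083. A count of 0 allows about 3 counts at a 1-sided 95% level, which came to 0.0910 and 0.106 CPM. The upper end of the 2-sided 95% interval of a level at 0 counts was 0.112 and 0.130 CPM.

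Of the 7 members that reached 5 CPM, 2 were called higher with CB-5083, SESN2 and DDIT4, and none lower, beside 7.22% called higher and 4.91% called lower among all 9543 genes that reached it. In bulk RNA, more transcript per cell and more cells that express a gene cannot be told apart. SESN1, TSC1, RHEB, MTOR and RPTOR lay within 2-fold. SESN3, DEPTOR and TSC2 stayed under 5 CPM in both libraries, so they could not be called. Over all 10, the median log2 ratio was 0.01, against 0.04 over the 11964 genes with a mean of at least 1 CPM. The members called higher are both stress-inducible inhibitors of mTORC1. Of the complex's own subunits on the list, MTOR and RPTOR lay within 2-fold and DEPTOR could not be called. With 7.22% of the 9543 genes called higher, so few subunits cannot show a contrast with the inhibitors.

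**Figure D1:**
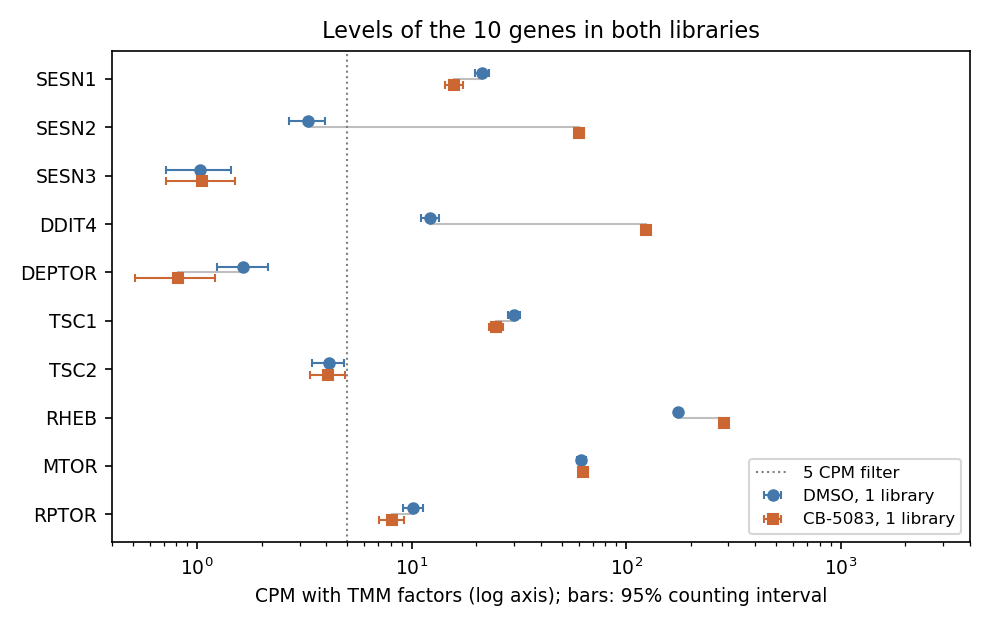
CPM on a log axis for each of the 10 genes with DMSO (blue circles) and CB-5083 (orange squares), 1 library each, with 95% counting intervals and the 5 CPM filter as a dotted line. SESN2 and DDIT4 lie far apart between the libraries, while TSC2, SESN3, MTOR and RPTOR have overlapping intervals. For RPTOR the interval of the fold, 0.667 to 0.940, still lay below 1.

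The promoters of SESN2 and DDIT4 are shown because these genes had the highest ratios of the list, and that of TSC2 because it alone among the 9 members with a window in the RefSeq table, all but DEPTOR, held the core of the response element bound by ATF4 with C/EBP factors. Each run covers the 250 bases before the gene's start, from RefSeq on GRCh38.p14, plus strand: chr1:28259268-28259517 for SESN2, chr10:72273674-72273923 for DDIT4 and chr16:2047735-2047984 for TSC2. Capitals mark every match to the motifs searched.
SESN2: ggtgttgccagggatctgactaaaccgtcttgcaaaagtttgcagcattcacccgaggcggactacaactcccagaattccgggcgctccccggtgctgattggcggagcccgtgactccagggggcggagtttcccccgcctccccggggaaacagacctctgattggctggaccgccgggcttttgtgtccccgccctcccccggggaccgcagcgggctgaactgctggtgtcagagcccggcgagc
DDIT4: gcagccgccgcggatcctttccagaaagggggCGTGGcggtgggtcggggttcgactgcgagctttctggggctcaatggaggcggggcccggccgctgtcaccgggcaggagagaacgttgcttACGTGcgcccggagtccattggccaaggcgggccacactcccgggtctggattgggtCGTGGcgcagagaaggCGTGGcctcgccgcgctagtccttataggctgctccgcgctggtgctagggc
TSC2: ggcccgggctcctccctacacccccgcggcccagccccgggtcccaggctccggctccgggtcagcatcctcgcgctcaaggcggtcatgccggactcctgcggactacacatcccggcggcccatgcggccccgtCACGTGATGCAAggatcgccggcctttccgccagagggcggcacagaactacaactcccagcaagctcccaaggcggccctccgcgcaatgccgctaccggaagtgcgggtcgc

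The motifs were searched on both strands in windows that run from 250 bases before to 50 bases after each start. The 9 members had 12 such windows in all. TGATGNAA, the ATF4 and C/EBP core, was in 3.62% of 35116 windows and, of those 9 members, in TSC2 only, 110 bases before its start. There it overlaps a CACGTG, the E-box, which 7.26% of windows held. ACGTG, the core of the hypoxia element and a part of CACGTG, was in 21.4% of windows and in those of DDIT4, RHEB and TSC2; in DDIT4 it lay 125 bases before the start. CCACG, the second part of the ER stress element, was in 38.1% of windows and in those of 7 members, with 3 matches before the start of DDIT4; those of TSC2 lay in its second window, which is not printed. TGACGTCA, the cAMP response element (1.85% of windows), and GTAAACA, the forkhead site (3.42%), were in none of the members' windows. The SESN2 window held none of the 6 motifs. These are matches of letters in short windows, and elements farther away or inside the genes were not searched.

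Among the sestrins, stress-inducible proteins that bind the GATOR2 complex, the paralogs differed in level and in ratio. SESN2 (chromosome 1, 28585963 to 28609002 in hg19, the build of the files) had 108 and 1715 estimated counts with DMSO and CB-5083, which is 3.28 against 60.3 CPM. This is a fold of 18.4 (15.2 to 22.6) and a log2 ratio of 3.84, exceeded by 8 of 9543 genes. SESN1 (chromosome 6, 109307640 to 109415708) led the sestrins in the DMSO library at 21.3 CPM and measured 15.8 CPM after CB-5083. The fold of 0.740 had a counting interval of 0.656 to 0.834, and the log2 ratio of -0.41 lay within 2-fold. SESN3 (chromosome 11, 94906133 to 94965705) was at 1.03 and 1.06 CPM, from 34 and 30 estimated counts, and its fold of 1.02 had an interval of 0.605 to 1.72. At that depth a difference in SESN3 smaller than this interval was not detectable.

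Levels of different genes compare only per transcript length, here CPM per kilobase with lengths from GENCODE release 29. On that scale SESN1 was 8.26 times SESN2 with DMSO, and SESN2 was 3.01 times SESN1 with CB-5083 (6.40 and 3.89 times with each gene's longest transcript in place of the median length). SESN1 made up 88.1% of the summed sestrin level with DMSO, SESN2 10.7% and SESN3 1.21%. With CB-5083 the shares were 24.8%, 74.7% and 0.472%. The summed level was 8.89 and 23.4 CPM per kilobase, 2.63 times as high with CB-5083, and SESN2 accounted for all of the increase, since SESN1 was lower and SESN3 nearly equal.

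**Figure D2:**
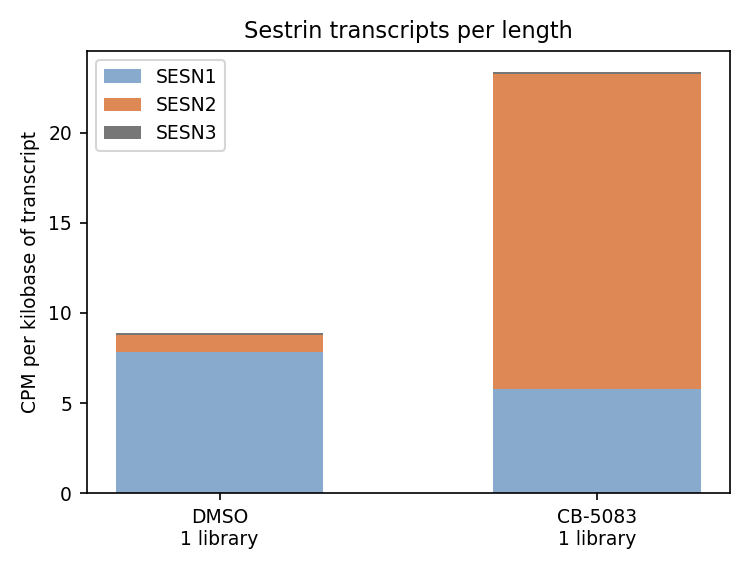
Stacked bars of CPM per kilobase of transcript for SESN1, SESN2 and SESN3 in the DMSO and the CB-5083 library, 1 library each. SESN1 fills 88.1% of the DMSO bar and SESN2 74.7% of the CB-5083 bar.

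DDIT4, an inhibitor of mTORC1 induced by hypoxia, glucocorticoids and ER stress, lies on chromosome 10 from 74033677 to 74035797. It had 401 and 3529 estimated counts with DMSO and CB-5083, which is 12.2 against 124 CPM, a fold of 10.2 (9.20 to 11.3). Its log2 ratio of 3.25 was exceeded by 24 of 9543 genes. SESN2 and DDIT4 were both past 8-fold, where 0.367% of the tested genes lay. Per length, DDIT4 was 7.34 times SESN2 with DMSO and 4.07 times with CB-5083, so DDIT4 was the more abundant of both inhibitors in each library. DDIT4L, the paralog of DDIT4, went the other way, at 10.5 against 4.78 CPM (2.19-fold lower, 1.79 to 2.69). Its log2 ratio of -0.99 was just inside the threshold, and other scalings called it lower, library totals at -1.28 and the upper quartile at -1.12.

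With only 2 libraries, likeness of pattern means a similar log2 ratio and no more. Among genes with at least 10 CPM in 1 library, those near SESN2 included LOC645638 (3.79) and DUSP1 (3.75), a phosphatase of MAP kinases. DUSP1 was at 5.43 against 85.8 CPM. The nearest to DDIT4 were MAP1LC3B2 (3.25), LAMB3 (3.27), a laminin chain, and CTGF (3.23), a matricellular protein. LAMB3 was at 5.52 against 61.8 CPM and CTGF at 5.22 against 57.2 CPM, whereas reads of MAP1LC3B2 may belong to its near-identical copy MAP1LC3B.

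In the TSC complex, the brake on RHEB through which DDIT4 acts, neither subunit differed by 2-fold. TSC1, the subunit that stabilises the complex (chromosome 9, 135766735 to 135820020), was at 30.0 and 24.8 CPM, a fold of 0.825 (0.748 to 0.910) and a log2 ratio of -0.27. TSC2, the subunit with GTPase-activating function (chromosome 16, 2097990 to 2138713), was at 4.10 and 4.08 CPM, from 135 and 116 estimated counts. Its fold of 0.996 had an interval of 0.771 to 1.29. The TSC1 to TSC2 ratio per length was 10.0 with DMSO and 8.32 with CB-5083. It depends on the length taken for TSC1, whose matched transcripts had a median of 4039 bases and a longest of 8616, and with the longest transcripts it was 5.24 and 4.34. TBC1D7, a small further subunit, was at 8.49 against 9.44 CPM. TSC2 overlaps PKD1 by 3 bases in the files' coordinates, and PKD1 was at 3.15 against 2.98 CPM.

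RHEB, the GTPase that activates mTORC1 directly (chromosome 7, 151163098 to 151217010), was the most abundant member in both libraries. Its level was 174 CPM in the DMSO library and 285 CPM in the other, a fold of 1.64 (1.59 to 1.70) and a log2 ratio of 0.71, higher than in 86.9% of the tested genes but under the 2-fold threshold. Per length it was 11.7 times MTOR with DMSO and 18.9 times with CB-5083, and 11.3 and 22.4 times TSC1 (24.0 and 47.8 times with the longest transcripts). After SESN2 and DDIT4, it had the next highest ratio of the list. RHEBL1, its paralog, was at 0.789 against 1.16 CPM.

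MTOR, the kinase (chromosome 1, 11166588 to 11322608) was at 61.9 and 63.0 CPM, a fold of 1.02 whose interval of 0.955 to 1.09 included 1. RPTOR, the scaffold that recruits substrates (chromosome 17, 78518625 to 78940173), was at 10.2 and 8.06 CPM, a fold of 0.793 (0.667 to 0.940) and a log2 ratio of -0.30. DEPTOR, a subunit that inhibits the kinase (chromosome 8, 120885900 to 121063157), had 54 and 23 estimated counts, which is 1.64 against 0.809 CPM. That is 2.02-fold lower with a wide interval of 1.22 to 3.46, and the log2 ratio was -0.54 with 1 CPM added and -1.02 without. The authors' deposited table, which scales the libraries in another way, has -1.11. Of the members only DEPTOR and SESN3 lay near 1 CPM, where a few counts decide a ratio.

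The members were then ordered by level per length. With DMSO, RHEB led at 83.7 CPM per kilobase, followed by SESN1 (7.84), TSC1 (7.43), MTOR (7.13) and DDIT4 (6.96). The intervals of SESN1 (7.27 to 8.44), TSC1 (6.97 to 7.91), MTOR (6.83 to 7.45) and DDIT4 (6.30 to 7.68) overlapped. Overlap does not show that levels are equal, and the order of these genes was not tested. With the longest transcripts TSC1 was lower, at 3.48, and SESN1 was at 6.07. RPTOR (1.67), SESN2 (0.949), TSC2 (0.740), DEPTOR (0.638) and SESN3 (0.108) followed, and the intervals of SESN2, TSC2 and DEPTOR overlapped too. With CB-5083, RHEB (137) was followed by DDIT4 (71.0) and SESN2 (17.5). Next came MTOR (7.26), TSC1 (6.13) and SESN1 (5.80), of which the last pair had overlapping intervals. With the longest transcripts TSC1 was at 2.87 and SESN1 at 4.49. The lowest were RPTOR (1.33), TSC2 (0.737), DEPTOR (0.315) and SESN3 (0.110). DDIT4 was thus at 0.976 times the level of MTOR with DMSO and at 9.78 times with CB-5083.

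**Figure D3:**
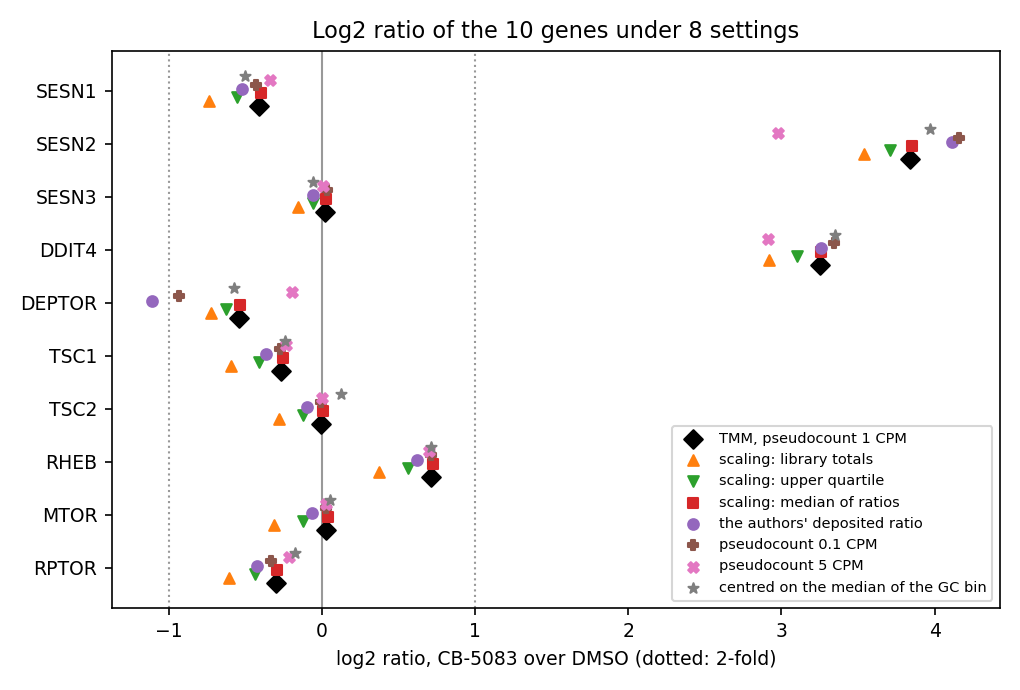
Log2 ratio of CB-5083 over DMSO for the 10 genes under TMM scaling with 1 CPM added (black diamonds) and 7 other settings, with dotted lines at 2-fold. SESN2 ranges from 2.98 to 4.16 and DDIT4 from 2.91 to 3.35, and TSC2, SESN3 and MTOR lie on both sides of 0.

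Scaling moved all ratios together: with library totals the median of the tested genes was 0.33 lower on the log2 scale than with TMM. SESN2 (3.54) and DDIT4 (2.92) stayed past 2-fold with library totals, where 3.86% of genes were called higher and 10.3% lower. RHEB was then at 0.37, MTOR at -0.31, TSC1 at -0.60 and SESN1 at -0.74. Directions of MTOR, TSC2 and SESN3 turned with the setting. SESN1, TSC1, RPTOR and DEPTOR were below 0 and RHEB above 0 in each of the 8 settings run. Ratios also ran with base composition: the median log2 ratio was 0.17 in the bin of genes with the lowest GC content and -0.19 in the bin with the highest. SESN2 and DDIT4 transcripts had 59.5% and 58.1% GC, and their log2 ratios were 3.88 and 3.26 above the medians of tested genes in their GC bins.

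Genes beyond the members were described with 9 lists, chosen by role. The last holds transcription factors known to act on sestrin or DDIT4 genes, and the others cover the rest of the pathway. Of 83 genes on the 9 lists with a mean of at least 1 CPM, 11 were called higher and 1 lower. Of all 11964 such genes, 5.76% were called higher and 3.92% lower. The transcription factors gave 3 of the 11, ATF4, DDIT3 and CEBPB. The median log2 ratio of the 83 genes was 0.11, and -0.21 with library totals. Over all 11964 genes it was 0.04, and -0.27 with library totals, and the list medians below are to be read beside these. With library totals 7 were called higher, namely ITFG2, IRS2, INPP4B, PDCD4, ATG13, CEBPB and DDIT3, and 3 lower. Under that scaling 371 were called higher and 994 lower of all 11993 genes with such a mean.

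Among the targets and effectors of mTORC1, 4 of 15 were called higher, none lower, and the median was 0.47. Of all measured genes, 5.76% were called higher. With library totals 2 of the list were called higher and the median was 0.15, and with upper quartile scaling 2 and 0.33. Of all measured genes, 371 of 11993 were called higher with library totals and 518 of 11976 with upper quartile scaling. PDCD4, an inhibitor of the translation helicase eIF4A, was at 40.5 against 121 CPM (2.99-fold, 2.80 to 3.18). ATG13 and ULK1, partners in the kinase complex that starts autophagy, were at 29.9 against 81.3 CPM (2.72-fold, 2.52 to 2.93) and at 2.12 against 5.52 CPM. GRB10, an adaptor that dampens insulin receptor signalling, was at 23.2 against 49.2 CPM, and with library totals neither it (0.72) nor ULK1 (0.80) passed 2-fold. RPS6, the ribosomal protein whose phosphorylation reports mTORC1 activity, had the highest level, at 1197 against 1770 CPM, within 2-fold. Transcript levels do not measure phosphorylation, so mTORC1 activity itself was not measured here.

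Of the growth factor inputs through PI3K and AKT, 2 of 12 were called higher and 1 lower. Of all measured genes, 5.76% were called higher and 3.92% lower. The median of the list was -0.23, and -0.55 with library totals, where that of all measured genes was -0.27. The insulin receptor substrates, adaptors that link the receptor to PI3K, went opposite ways. IRS1 was at 58.4 against 18.8 CPM (3.11-fold lower, 2.82 to 3.43). IRS2 had 12.7 and 43.8 CPM (3.44-fold higher, 3.08 to 3.85). INPP4B, a phosphoinositide phosphatase, was at 18.3 against 53.7 CPM (2.94-fold, 2.67 to 3.24).

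Of AMPK and its activators, which inhibit mTORC1 when energy is low, 1 of 10 was called higher and none lower. Of all measured genes 5.76% were called higher, so 1 of 10 does not set the list apart. Its median was 0.17, and -0.15 with library totals, where that of all measured genes was -0.27. PRKAB2, a regulatory beta subunit of AMPK, was at 41.2 against 93.6 CPM (2.27-fold, 2.13 to 2.43), and by library totals its log2 ratio was 0.83. PRKAG1, another subunit, was at 66.6 against 105 CPM and CAB39, a partner of the upstream kinase LKB1, at 157 against 206 CPM, both within 2-fold.

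The amino acid branch, on which sestrins act, was mostly within 2-fold. Of 11 genes of GATOR1, GATOR2 and KICSTOR 1 was called higher and none lower, beside 5.76% called higher among all measured genes. The list's median was 0.21, and -0.11 with library totals, where that of all measured genes was -0.27. The gene called higher was ITFG2, at 4.25 against 12.3 CPM (2.91-fold, 2.38 to 3.56). It encodes a subunit of the KICSTOR scaffold that anchors GATOR1 to lysosomes. SEH1L, shared by GATOR2 and the nuclear pore, was at 167 against 178 CPM. None of 12 genes of the Rag GTPases, Ragulator and folliculin was called (median -0.05, and -0.37 with library totals). RRAGC, a Rag GTPase, was at 13.9 against 22.4 CPM and HBXIP, a Ragulator subunit now named LAMTOR5, at 71.4 against 67.1 CPM. FNIP2, a partner of folliculin, was at 9.38 against 4.82 CPM, a log2 ratio of -0.83 that passed 2-fold with library totals (-1.13).

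None of the 3 measured amino acid sensors was called (median 0.45, and 0.13 with library totals). LARS, the leucyl-tRNA synthetase with a reported role in leucine sensing, was at 306 against 466 CPM, and SLC38A9, the lysosomal arginine sensor, at 20.0 against 27.7 CPM. Of 7 measured further subunits and assembly factors of both mTOR complexes none was called (median -0.15, and -0.43 with library totals). RICTOR, the scaffold of mTORC2, was at 46.7 against 65.0 CPM, MAPKAP1, another mTORC2 subunit, at 86.0 against 80.7 CPM, and MLST8, common to both complexes, at 2.09 against 1.27 CPM.

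Of 11 measured transcription factors known to act on sestrin or DDIT4 genes, 3 were called higher and none lower. Of all measured genes, 5.76% were called higher. The list's median was 0.52, and 0.18 with library totals. The 3 factors were DDIT3, which encodes CHOP, at 6.16 against 351 CPM, CEBPB, a partner of ATF4, at 7.89 against 24.0 CPM, and ATF4 at 237 against 498 CPM. ATF4 was not called with library totals (0.73). HIF1A was at 297 against 427 CPM, NFE2L2 at 199 against 387 CPM and FOXO3 at 63.6 against 113 CPM, all within 2-fold. The other FOXO genes listed went the other way. FOXO1 was at 22.7 against 14.3 CPM, within 2-fold, and FOXO4, under the filter, at 3.73 against 2.71 CPM. HIF1A, NFE2L2 and the FOXO genes were named after their values were seen. Whether any of these factors bore on SESN2 or DDIT4 was not tested.

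**Figure D4:**
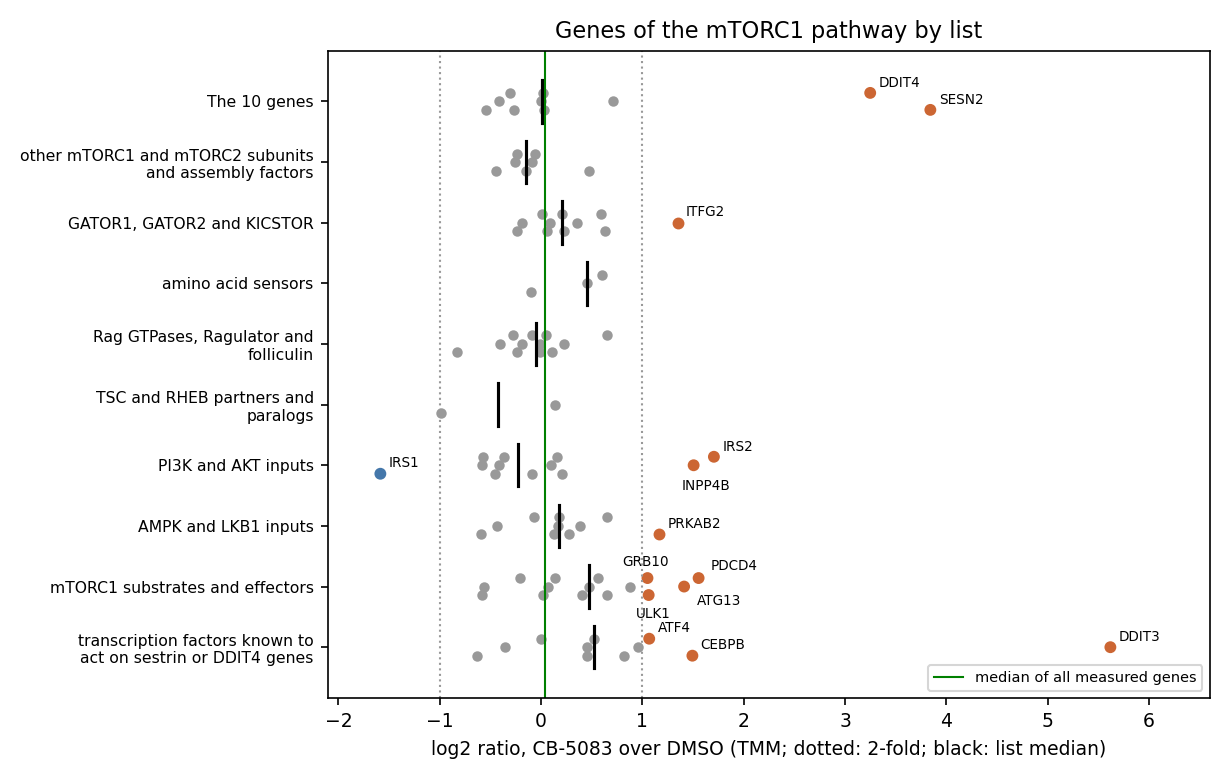
Log2 ratio of CB-5083 over DMSO for measured genes of the 10-gene list and the 9 other lists, with list medians as black bars, the median of all measured genes as a green line and dotted lines at 2-fold. DDIT3, SESN2 and DDIT4 have the highest ratios, IRS1 is the only gene called lower, and most genes lie within 2-fold.

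The labelled cell type was checked against markers. EPCAM (433 against 501 CPM), KRT8 and KRT18 were abundant, CDH1, the epithelial cadherin, was at 66.7 against 243 CPM, and CDX2 and KRT20 were low. CDX1 had 0 counts in both libraries, and VIL1, CEACAM5 and LGALS4, markers of differentiated colon epithelium, had fewer than 3. Fibroblast markers summed to 2.63 and 3.66 CPM over 6 genes and leukocyte markers to 1.51 and 2.24 CPM over 5. Most of these sums came from COL1A1, at 2.52 against 3.48 CPM, and CD68, at 1.30 against 2.01 CPM. COL1A2, DCN, LUM, PTPRC and CD3E were at 0 in both.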

How the data were processed

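Expression was measured by stranded mRNA sequencing, per the labels' protocols, in 1 library per treatment. RSEM 1.2.0 and hg19 come from the submitters' processing notes, and the aligner and strand setting are not given in the sources used here. Each deposited value is a signal: an estimated count, scaled by the authors per library to a 75th percentile near 1000 (999.73 and 999.89), read from the values, although the headers say counts. The authors' deposited log2 ratio holds a number for 16034 genes, equal to the ratio of these values within 2.4e-09, and spreadsheet error text for the other 5081. Dividing by the commonest low step (1.079 and 1.1752) gave estimated counts; 76.6% and 77.1% of values up to 5 were whole within 0.02, the others fractions. The design had allowed for such a scaled signal.

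CPM used TMM factors of 1.1258 and 0.8883 (trims of 30% and 5%). Transcript lengths and GC content are medians over GENCODE release 29 transcripts with the row's RefSeq accessions. 1 row without values was left out.

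The members and lists were chosen with earlier results of these data known. Named genes are the members, each list's genes past 2-fold, its 2 largest ratios and its highest level, and the 3 genes nearest in ratio to each called member; some of these are not reported here. Scripts were tested on simulated data. Alternatives covered scaling, pseudocount, filter, threshold, interval and, chosen after seeing the data, GC content and transcript length. Software was scipy 1.17.1, numpy 2.4.6 and pandas 2.3.3 under Python 3.11.15, with figures from matplotlib 3.10.9.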

Additional observations from a re-analysis of the deposited data

How the results depend on the processing

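SESN2 and DDIT4 were the members called higher, and none was called lower, under each scaling, pseudocount, filter and GC setting run, the authors' deposited ratio included. By that ratio DEPTOR was past 2-fold lower, at -1.11, and was not called because it stayed under 5 CPM. In the setting without a filter 1 CPM was still added, which left DEPTOR at -0.54. With a fold threshold of 1.5, RHEB was called higher too. Of all tested genes, 70.1% lay within 1.5-fold with TMM. Over the 9 other lists the counts of 11 higher and 1 lower moved. With library totals they were 7 and 3, with a fold threshold of 1.5 they were 20 and 6, and with one of 4 they were 1 and 0. Shares of all genes called higher and lower at thresholds of 1.5 and 4 are not given here. The counts at these thresholds therefore do not set the lists apart from other genes. The count of lower genes was 2 with upper quartile scaling, with a pseudocount of 0.1 CPM and after centring on the GC bin, and 3 by the authors' deposited ratio. The count of higher genes was 8 with upper quartile scaling and with a pseudocount of 5 CPM, and 9 by the authors' deposited ratio. It was 10 with a filter of 10 CPM in 1 library and 12 after centring on the GC bin. Per length, the TSC1 to TSC2 ratio with DMSO was 5.24 with the longest transcripts against 10.0. The share of SESN2 among sestrins with CB-5083 was 79.2% with the longest transcript per gene. All 20 bounds of the members' fold intervals stayed within 10% with a log-normal interval. Depth limits SESN3, DEPTOR and TSC2 most. Leaving out a replicate was not possible with 1 library per group. No paired analysis was possible because each group has 1 library.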
